A study of Arabidopsis thaliana with 6 samples.

Results

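The genes described here are 39 Arabidopsis loci that make, regulate or break down glucosinolates, and they were listed by their known roles, with earlier results of these data known. The list holds 25 genes of the aliphatic branch, 4 genes of the core shared by both branches, 7 genes of the indole branch and 3 genes of breakdown. Of the 32678 genes in the count files, 38 are on the list. *AOP2* was not analysed here.

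Transcripts were measured by RNA sequencing in inflorescence apices carrying flowers up to stage 12, in 3 samples of *bpcV* and 3 samples of wild type (WT), all of the Columbia-0 ecotype and grown untreated in long days. *bpcV* is the quintuple mutant *bpc1-2* *bpc2* *bpc3* *bpc4* *bpc6* of BASIC PENTACYSTEINE (BPC) genes, which encode DNA-binding proteins that recognise GA repeats. The single quintuple line was the only mutant sequenced, so the part of each mutated gene in a difference cannot be told apart. Apices are a mixture of many cell types, and a lower level in them may be fewer cells of a type or less RNA per cell, which bulk RNA cannot tell apart.

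Glucosinolates are sulfur-rich defence compounds of the cabbage order. The aliphatic ones are made from methionine, whose side chain is first lengthened in repeated rounds, and the indole ones from tryptophan. In both branches a cytochrome P450 of the CYP79 family turns the amino acid into an aldoxime, a CYP83 enzyme oxidises it, and sulfur is then added, followed by a glucose and a sulfate, after which the side chain can be modified. The finished compounds are mainly activated when tissue is broken and myrosinases, stored in specialised myrosin cells and in guard cells, cut off the glucose. This releases isothiocyanates, nitriles and other toxic products.

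The libraries held 16196042 to 19951509 expected counts in *bpcV* and 17777219 to 21455150 in wild type. The first principal component separated the genotypes, with *bpcV* replicate 1 (-38.6) further from wild type than *bpcV* replicates 2 (-22.8) and 3 (-19.3). On the second, *bpcV* replicates 1 (28.6), 2 (-28.5) and 3 (-9.81) lay on both sides of the wild type libraries (1.05 to 5.04). The mutated genes *BPC1*, *BPC2* and *BPC6* were 38.0, 21.6 and 22.4 times higher in wild type, *BPC4* was 1.54 times higher in wild type, and the transcript of *BPC3* did not pass the test (log2 fold change 0.38, edgeR FDR = 0.2916). All 8 floral apex markers, among them *LFY*, *AP1*, *AP3* and *AG*, were present, and none of them passed an FDR of 0.01. *AP1* (log2 fold change 0.48, edgeR FDR = 0.0154), *AP3* (0.31) and *AG* (0.18) were nevertheless higher in every *bpcV* library than in any wild type library, and the 8 markers summed to 891 to 1082 TPM in *bpcV* against 880 to 888 TPM in wild type. Of the markers of other cells the apices hold, none of 7 for guard and myrosin cells, 4 for phloem or 7 for pollen passed it either. The phloem markers *SEOR1* and *SEOR2* (-0.27 and -0.24) were lower in every *bpcV* library, and the 4 phloem markers summed to 155 to 179 TPM in *bpcV* and 178 to 181 TPM in wild type. The 8 tapetum markers tested all had negative log2 fold changes (median -0.60), *AMS* and *A6* with an FDR of at most 0.05, and their summed level was 109 to 157 TPM in *bpcV* against 158 to 280 TPM in wild type. Of all genes tested, 18.2% were higher and 17.6% lower in every *bpcV* library than in any wild type library. The part of these cell types in the differences below was not tested.

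Genes were compared between *bpcV* and wild type with edgeR's quasi-likelihood test over all 20813 genes with enough counts, and a gene was called at a false discovery rate (FDR) of at most 0.01. CPM are counts scaled to the size of each library, and serve to compare 1 gene between libraries. TPM are also corrected for gene length, and serve to compare genes. Fold changes are *bpcV* over wild type, so that a positive log2 value means a higher level in *bpcV*.

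Of the 38 genes, 33 were tested, and 4 of them were called. *ESM1*, *IMD1* and *CYP83B1* rose in *bpcV*, and *FMO-GS-OX4* fell. Over all genes tested, 3.89% were called, 1.66% higher and 2.23% lower. At an FDR of at most 0.05 the counts were 7 higher and 1 lower, where all genes gave 5.69% and 6.35%. Of the 33 genes, 25 had a log2 fold change above 0, which 51.5% of all genes had, and their median was 0.28 against 0.01 for all genes. An unadjusted p under 0.05 was found for 13 of the 33 and for 28.3% of all genes. CPM did not overlap between the genotypes for 12 genes higher and 2 lower in *bpcV*, where 18.2% of all genes were higher and 17.6% lower in this way, 35.8% together. Without *bpcV* replicate 1, 5 listed genes were called higher and 1 lower, *CYP79B2* and *UGT74B1* being added to the 3. Over all genes that fit called 587 higher and 662 lower, against 345 and 464 with all libraries. Leaving out *bpcV* replicate 2 gave 3 listed genes higher and 1 lower. Leaving out *bpcV* replicate 3 or any 1 wild type library gave 1 higher and 0 lower. Calls over all genes fell too, to 87 higher and 169 lower without *bpcV* replicate 3. Without wild type replicates 1, 2 and 3 they were 48, 38 and 47 higher and 124, 129 and 157 lower. The other 29 genes tested with all libraries did not pass the threshold, and the 5 genes not tested had too few counts.

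**Figure D1:**
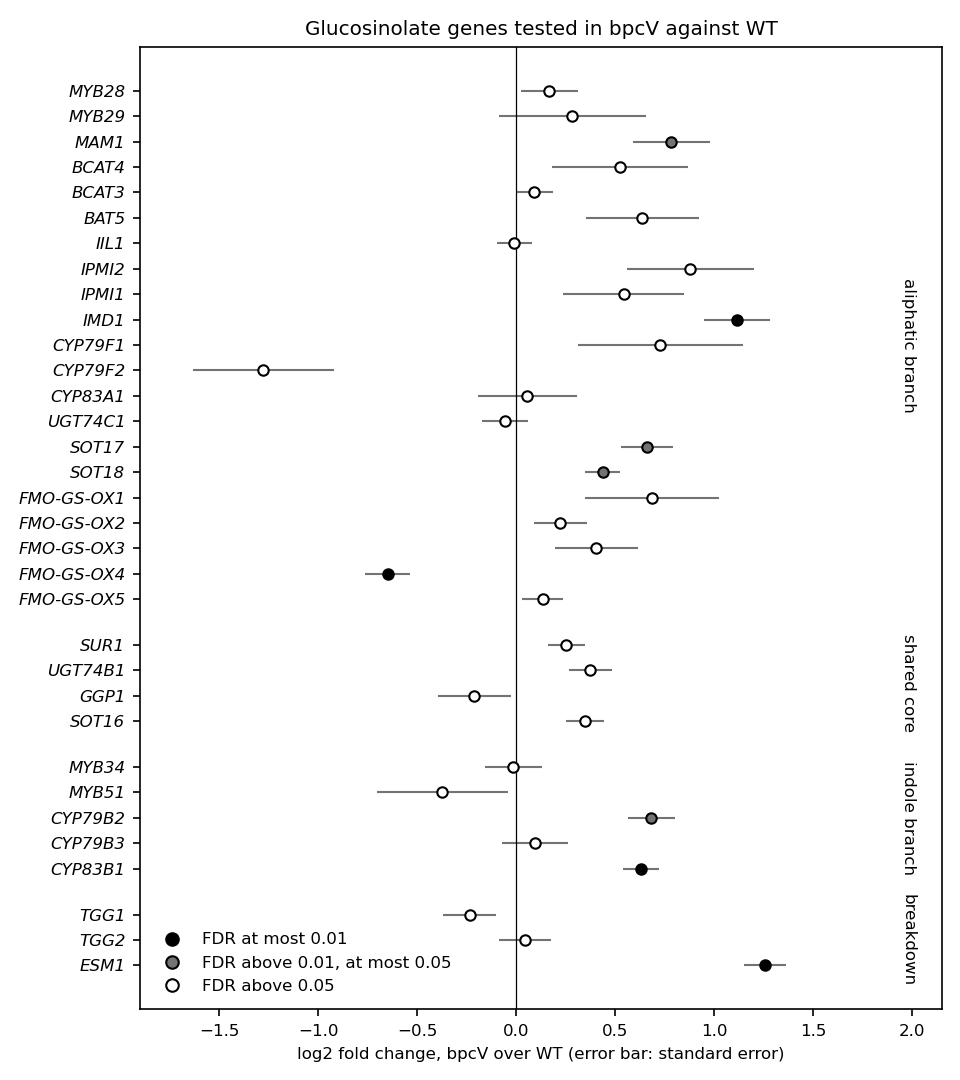
Log2 fold change of *bpcV* over wild type (horizontal axis) for each of the 33 genes tested, ordered by branch and step, with standard errors as bars. Filled black points are genes with an FDR of at most 0.01 (*ESM1*, *IMD1* and *CYP83B1* to the right of 0, *FMO-GS-OX4* to the left), grey points those above 0.01 and at most 0.05, and open points the rest. *CYP79F2*, at -1.28, lies furthest to the left, and *ESM1*, at 1.26, furthest to the right.

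The breakdown genes held most of the transcripts of the list. *TGG1* (AT5G26000) and *TGG2* (AT5G25980), the myrosinases of the shoot, averaged 1988 ± 190 and 3612 ± 258 TPM in *bpcV*, against 2327 ± 309 and 3477 ± 428 TPM in wild type (SD, n = 3 each). Together they took 0.743 to 0.881% of all counts in *bpcV* libraries and 0.756 to 0.939% in wild type libraries. The next most abundant genes of the list, *GGP1* and *IIL1*, averaged 142 and 137 TPM over the 6 libraries.

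*TGG1* and *TGG2* lie near each other on chromosome 5, 3674 bases apart, on opposite strands and with 2 other annotated genes between them. The 250 bases before their annotated starts are shown because these are the most abundant transcripts of the pathway and because the windows share sequence. They hold the same 2 runs of at least 12 bases, 38 bases in all, the longer of 21. Capitals mark the shared runs. The *TGG1* window is chr5:9082385-9082634 on the minus strand and the *TGG2* window is chr5:9072458-9072707 on the plus strand (TAIR10.1, RefSeq), both written 5′ to 3′ in the direction of the gene.
TGG1: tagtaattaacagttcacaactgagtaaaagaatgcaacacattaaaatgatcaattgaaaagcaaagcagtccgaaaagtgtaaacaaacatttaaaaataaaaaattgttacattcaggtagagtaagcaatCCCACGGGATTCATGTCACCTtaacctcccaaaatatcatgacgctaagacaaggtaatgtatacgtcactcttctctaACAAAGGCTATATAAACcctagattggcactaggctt
TGG2: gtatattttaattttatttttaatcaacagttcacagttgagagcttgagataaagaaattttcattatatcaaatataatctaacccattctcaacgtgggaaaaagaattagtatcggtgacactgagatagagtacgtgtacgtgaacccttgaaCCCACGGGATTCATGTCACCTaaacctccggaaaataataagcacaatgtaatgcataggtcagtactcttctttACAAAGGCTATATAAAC

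*TGG2* had 3812, 3704 and 3321 TPM in *bpcV* replicates 1 to 3 and 3963, 3316 and 3153 TPM in wild type replicates 1 to 3. The genotypes overlapped (log2 fold change 0.05, 95% confidence interval -0.25 to 0.35, edgeR FDR = 0.856). *TGG1* had 2189, 1963 and 1811 TPM in *bpcV*, against 2675, 2220 and 2086 TPM in wild type. Here too the libraries overlapped, *bpcV* replicate 1 lying above wild type replicate 3, and the difference did not pass the test (-0.24, interval -0.54 to 0.07, edgeR FDR = 0.293). *FAMA*, the transcription factor that specifies myrosin cells and guard cells, had a log2 fold change of 0.20 (edgeR FDR = 0.364), and the 7 guard and myrosin cell markers, of which *FAMA* is 1, summed to 64.9 to 69.5 TPM in *bpcV* and 62.1 to 64.2 TPM in wild type. Of the 7, *HT1* (0.55, edgeR FDR = 0.254) and *MYB60* (0.47, edgeR FDR = 0.120) were higher in every *bpcV* library than in any wild type library. Over all genes tested, 18.2% were higher in this way. The other 5 overlapped, and 3 of the 7 had negative log2 fold changes. The set of 7 does not separate myrosin cells from guard cells.

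The levels of both genes were also compared by their ratio within each library. *TGG1* over *TGG2* was 0.574, 0.530 and 0.545 in *bpcV*, against 0.675, 0.669 and 0.661 in wild type. All 3 *bpcV* ratios lay under all 3 wild type ratios, a difference of -0.28 on the log2 scale. An exact two-sided permutation test gave p = 0.1, the smallest that 3 libraries against 3 can give, and 0.14 after adjustment over the 7 pairs of nearby listed genes compared. Counts of both genes were whole (within 0.005) in all 6 libraries, so RSEM divided no reads between them.

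*ESM1* (AT3G14210) encodes a GDSL lipase-like protein of the epithiospecifier modifier type, which favours the release of isothiocyanates over nitriles. It had 66.9, 58.9 and 66.5 CPM in *bpcV*, against 24.3, 30.4 and 25.8 CPM in wild type. All *bpcV* libraries lay far above the highest wild type library, and the fold change was 2.39 (log2 1.26 ± 0.11 SE, edgeR FDR = 0.000599). *ESM1* was called under all 16 alternative settings and had the highest log2 fold change of the 33 genes. Its promoter window is shown as that of the gene that rose most, chr3:4729149-4729398 on the plus strand (TAIR10.1, RefSeq). It is all in lower case because neither motif searched, the G-box CACGTG or the GA repeat GAGAGA, was found in it on either strand.
ESM1: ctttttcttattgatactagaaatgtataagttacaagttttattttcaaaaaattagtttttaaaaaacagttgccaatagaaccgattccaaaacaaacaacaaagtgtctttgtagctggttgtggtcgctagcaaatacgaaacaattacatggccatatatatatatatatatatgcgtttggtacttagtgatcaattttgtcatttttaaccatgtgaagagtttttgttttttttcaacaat

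The aliphatic branch begins with 3 MYB transcription factors that switch on its enzymes. *MYB28* (AT5G61420), the main one, had 19.2, 13.2 and 16.2 CPM in *bpcV*, against 15.4, 14.5 and 13.4 CPM in wild type (log2 fold change 0.17, edgeR FDR = 0.495). *MYB29* had 1.78, 0.672 and 1.21 CPM in *bpcV* and 1.09, 0.804 and 1.09 CPM in wild type (0.28, edgeR FDR = 0.666). The genotypes overlapped for both, and without *bpcV* replicate 1 the log2 fold change of *MYB29* was -0.08. *MYB76*, next to *MYB29* on chromosome 5, had no count in any of the 6 libraries, where 3 counts amount to 0.142 to 0.178 CPM.

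Chain elongation lengthens methionine before the core pathway. Its 8 genes tested had a median log2 fold change of 0.59, and 7 of the 8 were above 0, against 51.5% of all genes. CPM overlapped between the genotypes for 5 of the 8, and the other 3 were higher in *bpcV*, against 18.2% of all genes. *IMD1* (AT5G14200), an isopropylmalate dehydrogenase that acts in each elongation round, rose: it had 10.3, 8.35 and 8.24 CPM in *bpcV*, against 3.83, 4.88 and 3.75 CPM in wild type. No *bpcV* library came near the wild type range, and the fold change was 2.16 (log2 1.11 ± 0.17 SE, edgeR FDR = 0.00524). The call was lost when 1 of 4 libraries was left out, with edgeR FDR values of 0.0164 without *bpcV* replicate 3 and of 0.0307, 0.0157 and 0.0317 without wild type replicates 1, 2 and 3.

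*MAM1* (AT5G23010), a methylthioalkylmalate synthase that sets the number of carbons added, had 6.72, 7.73 and 6.33 CPM in *bpcV*, against 3.12, 4.99 and 4.02 CPM in wild type. The groups did not overlap, but the difference missed the threshold (log2 fold change 0.78 ± 0.19 SE, edgeR FDR = 0.0355). Its neighbour *MAM3*, which makes the longest chains, was too low to be tested, with 1, 9 and 1 counts in *bpcV* and 8, 18 and 23 counts in wild type. Fitted without the filter on low counts, *MAM3* had a log2 fold change of -2.08 (edgeR FDR = 0.122).

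*IIL1* (AT4G13430), the large subunit of the isopropylmalate isomerase and the most abundant aliphatic gene, had 128, 146 and 136 TPM in *bpcV*, against 139, 138 and 134 TPM in wild type. The libraries overlapped and the log2 fold change was -0.01 (95% confidence interval -0.21 to 0.19, edgeR FDR = 0.962). Without *bpcV* replicate 1 the value of *IIL1* was 0.043. The small subunits *IPMI2* and *IPMI1* had log2 fold changes of 0.88 (edgeR FDR = 0.118) and 0.54 (edgeR FDR = 0.290), and without *bpcV* replicate 1 that of *IPMI2* was 0.42. Among the other elongation genes, *BAT5*, which carries the oxo acids into the chloroplast, had 0.64, and the aminotransferases *BCAT4* and *BCAT3* had 0.52 and 0.09. *IIL1* also serves leucine synthesis, as *BCAT3* does for branched-chain amino acids.

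**Figure D2:**
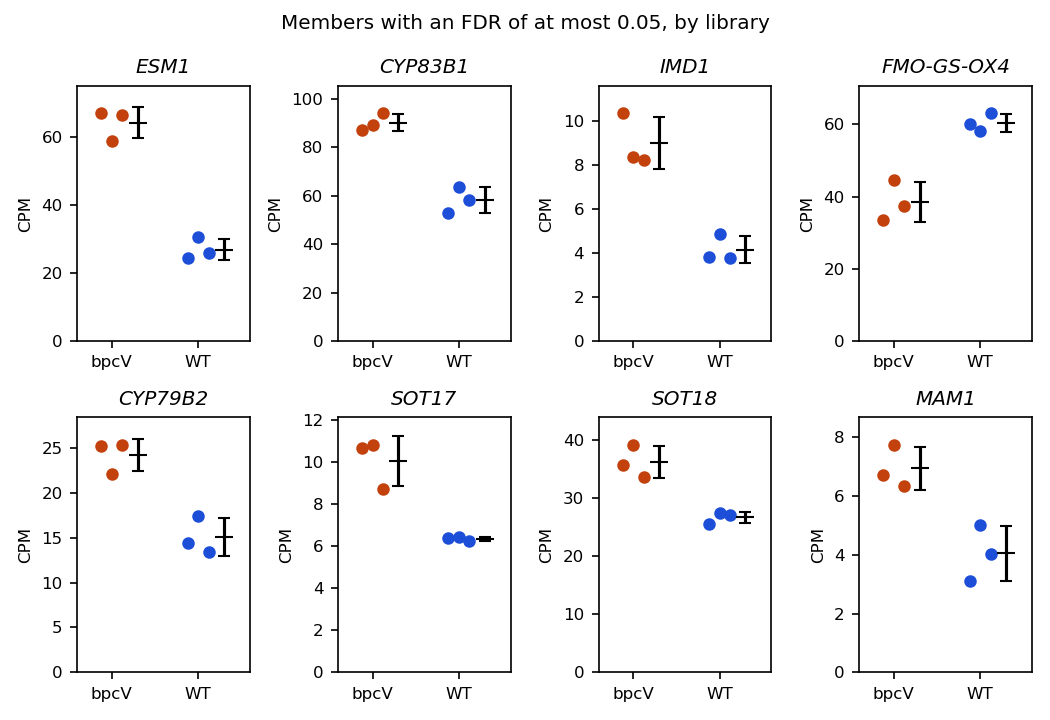
CPM of the 8 genes with an FDR of at most 0.05 in each library, *bpcV* on the left and wild type (WT) on the right of each panel. Points are libraries, and the black mark and bar give the mean and SD of 3. In all 8 panels the 3 *bpcV* points lie clear of the 3 wild type points, above them in 7 and below them in *FMO-GS-OX4*.

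In the aliphatic core no gene was called, and *SOT17* and *SOT18* came nearest. These sulfotransferases add the sulfate that completes aliphatic glucosinolates. *SOT17* (AT1G18590) had 10.6, 10.8 and 8.70 CPM in *bpcV*, against 6.38, 6.43 and 6.25 CPM in wild type. *SOT18* (AT1G74090) had 35.6, 39.2 and 33.7 CPM in *bpcV* and 25.6, 27.4 and 27.2 CPM in wild type. Both were higher in every *bpcV* library than in any wild type library, at log2 fold changes of 0.66 (edgeR FDR = 0.0163) and 0.44 (edgeR FDR = 0.0175), and DESeq2 and edgeR's likelihood ratio test called both. *CYP83A1* and *UGT74C1*, the P450 and the glucosyltransferase of this branch, overlapped between genotypes at 0.06 (edgeR FDR = 0.912) and -0.06 (edgeR FDR = 0.784), the value of *UGT74C1* being 0.033 without *bpcV* replicate 1.

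*CYP79F1* and *CYP79F2*, which convert chain-elongated methionine to aldoximes, lie 1183 bases apart on chromosome 1 and were both low, at 1.20 and 0.702 TPM on average. *CYP79F1* ranged over 1.91 to 2.68 CPM in *bpcV* and 0.652 to 2.41 CPM in wild type (log2 fold change 0.73, edgeR FDR = 0.299). *CYP79F2* ranged over 0.402 to 0.951 CPM in *bpcV* and 1.32 to 1.52 CPM in wild type, without overlap (-1.28, edgeR FDR = 0.0530). Neither passed the test. edgeR's likelihood ratio test called *CYP79F2* lower (FDR = 0.00327), the only 1 of its 13 alternatives to do so. The TPM ratio of *CYP79F1* to *CYP79F2* was 2.65, 4.68 and 4.89 in *bpcV*, against 0.769, 1.54 and 0.425 in wild type, so that *CYP79F1* exceeded *CYP79F2* in 3 of 3 *bpcV* libraries and 1 of 3 wild type libraries (exact two-sided permutation p = 0.1, the smallest possible, adjusted 0.14).

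The side-chain genes *FMO-GS-OX1* to *FMO-GS-OX5* encode flavin monooxygenases that oxidise the sulfur of the methionine-derived chain. *FMO-GS-OX4* (AT1G62570) fell: it had 33.5, 44.5 and 37.4 CPM in *bpcV*, against 60.1, 58.1 and 63.1 CPM in wild type. Every wild type library exceeded every *bpcV* library, and the level was 1.57 times higher in wild type (log2 fold change -0.65 ± 0.11 SE, edgeR FDR = 0.00925). This is close to the threshold, and the edgeR FDR was 0.0388 without *bpcV* replicate 3 and 0.0423, 0.0392 and 0.04998 without wild type replicates 1, 2 and 3. limma on log2 TPM did not call it either (adjusted p = 0.0164 with a pseudocount of 1).

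None of the other 4 family members was called, and all 4 had positive log2 fold changes, from 0.13 for *FMO-GS-OX5* to 0.69 for *FMO-GS-OX1*, which had 0.31 without *bpcV* replicate 1. The counts of *FMO-GS-OX5* were not whole in any library, so it shares reads with another gene and its values are uncertain. *FMO-GS-OX2*, *FMO-GS-OX3* and *FMO-GS-OX4* lie close together on chromosome 1, with 2 other annotated genes between *FMO-GS-OX2* and *FMO-GS-OX3* and none between *FMO-GS-OX3* and *FMO-GS-OX4*. *FMO-GS-OX2* over *FMO-GS-OX4* was 1.14, 1.14 and 1.38 by TPM in *bpcV*, against 0.636, 0.776 and 0.592 in wild type, so the order of the pair was opposite in the genotypes in every library. The exact two-sided permutation p was 0.1, the smallest possible, and 0.14 after adjustment. This ratio reuses the levels of *FMO-GS-OX4*, already called lower, while *FMO-GS-OX2* alone overlapped (log2 fold change 0.22, edgeR FDR = 0.319). *FMO-GS-OX2* over *FMO-GS-OX3* overlapped, at 7.78 to 13.6 in *bpcV* and 11.6 to 13.6 in wild type. *AOP3*, a dioxygenase that makes hydroxyalkyl side chains, was not tested, with 1, 3 and 4 counts in *bpcV* and 1, 1 and 9 in wild type.

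The promoter window of *FMO-GS-OX4* is shown because it is the gene that fell and holds a GA repeat, the kind of sequence BPC proteins bind. Searched on both strands, GAGAGA was present in 20.6% of the 27431 windows of 250 bases before an annotated start and in 3 of the 38 here, *MYB29*, *FMO-GS-OX4* and *SOT16*. CACGTG, the G-box bound by bHLH factors such as *MYC2*, was present in 6.49% of all windows and in 3 of the 38, *IIL1*, *CYP83A1* and *SUR1*. A match is only a description of the letters. The window is chr1:23168517-23168766 on the plus strand (TAIR10.1, RefSeq), and the capitals mark the match, read as its reverse complement, whose first base lies at -115.
FMO-GS-OX4: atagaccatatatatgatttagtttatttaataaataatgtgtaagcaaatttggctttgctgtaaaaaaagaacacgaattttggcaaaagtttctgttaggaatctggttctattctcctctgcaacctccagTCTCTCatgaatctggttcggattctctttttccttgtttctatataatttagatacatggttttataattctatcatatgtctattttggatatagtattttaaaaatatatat

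**Figure D3:**
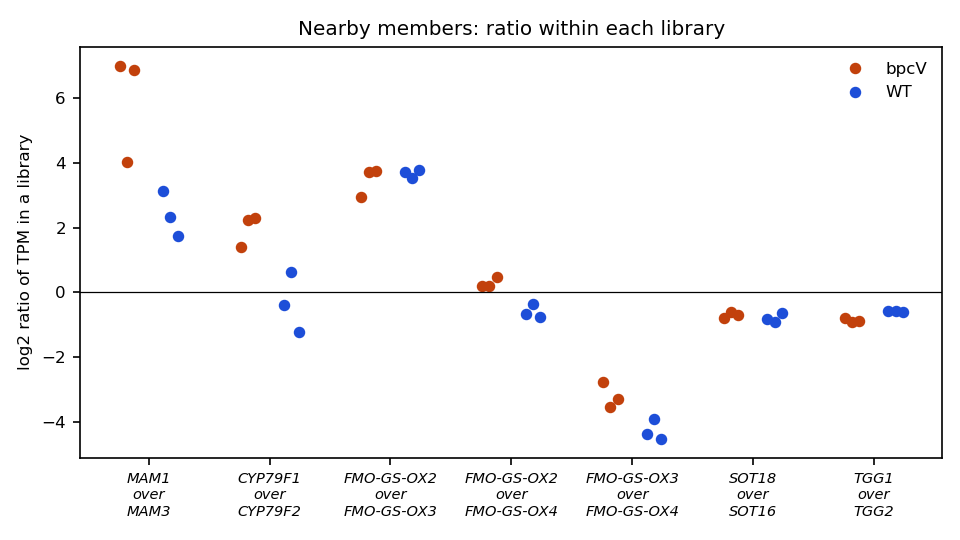
Log2 ratio of TPM within each library (vertical axis) for 7 pairs of nearby genes, *bpcV* points on the left of each pair and wild type (WT) points on the right. The genotypes do not overlap in 5 pairs and overlap in *FMO-GS-OX2* over *FMO-GS-OX3* and in *SOT18* over *SOT16*. Among all single genes tested, 35.8% did not overlap by CPM, and no share over other gene pairs was computed. The pairs are not independent: *FMO-GS-OX2* and *FMO-GS-OX3* are both set over *FMO-GS-OX4*, whose own levels did not overlap. *MAM1* over *MAM3* rests on as few as 1 count of *MAM3* in a library.

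The 4 genes of the shared core all had modest differences, and none was called. *GGP1* (AT4G30530), a peptidase that trims the glutathione conjugate, was the most abundant of them, with 98.9, 172 and 123 TPM in *bpcV* and 142, 161 and 154 TPM in wild type. The *bpcV* libraries spanned the wild type ones (log2 fold change -0.21, 95% confidence interval -0.63 to 0.21, edgeR FDR = 0.501). *SUR1*, the C-S lyase, *UGT74B1*, a glucosyltransferase, and *SOT16*, the sulfotransferase that prefers indole substrates, were each higher in every *bpcV* library than in any wild type library. Their log2 fold changes were 0.25 (edgeR FDR = 0.123), 0.37 (edgeR FDR = 0.0598) and 0.35 (edgeR FDR = 0.0555). Among all genes tested, 18.2% were likewise higher in every *bpcV* library. Without *bpcV* replicate 1 *UGT74B1* passed the threshold, at a log2 fold change of 0.48 and an edgeR FDR of 0.00269.

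In the indole branch no regulator was called, and 1 of the 3 core enzymes was. *MYB34* (AT5G60890), which is the main regulator of this branch in roots, had 6.60, 5.60 and 5.48 CPM in *bpcV* and 5.43, 6.14 and 6.30 CPM in wild type (log2 fold change -0.02, edgeR FDR = 0.959). *MYB51* (AT1G18570), the main regulator in shoots, had 1.55, 1.01 and 1.21 CPM in *bpcV* and 1.61, 2.24 and 1.03 CPM in wild type (-0.37, edgeR FDR = 0.509). *MYB122* had 2, 1 and 0 counts in *bpcV* and 0, 1 and 0 in wild type and was not tested. The genotypes overlapped for all of them.

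*CYP83B1* (AT4G31500), which oxidises indole-3-acetaldoxime and so commits it to glucosinolates, is the most abundant gene of the indole branch, and it rose. It had 87.0, 89.4 and 94.0 CPM in *bpcV*, against 52.9, 63.5 and 58.4 CPM in wild type. The 3 *bpcV* libraries lay within a narrow range above all of wild type, and the fold change was 1.55 (log2 0.63 ± 0.09 SE, edgeR FDR = 0.00488). In TPM it averaged 67.4 ± 1.78 in *bpcV* and 43.3 ± 3.53 in wild type (SD, n = 3 each). The edgeR FDR was 0.0217 without *bpcV* replicate 3 and 0.0273, 0.0189 and 0.0327 without wild type replicates 1, 2 and 3, which ended the call in each case.

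*CYP79B2* (AT4G39950), which converts tryptophan to indole-3-acetaldoxime, had 25.1, 22.1 and 25.3 CPM in *bpcV*, against 14.4, 17.5 and 13.4 CPM in wild type. The genotypes did not overlap, and the difference missed the threshold by little (log2 fold change 0.68 ± 0.12 SE, edgeR FDR = 0.0101). It was called under 5 of 16 alternatives, among them DESeq2 and leaving out *bpcV* replicate 1 (edgeR FDR = 0.00991). *CYP79B3*, which catalyses the same step, had 14.5 to 18.5 CPM in *bpcV* and 12.1 to 18.8 CPM in wild type (0.09, edgeR FDR = 0.758). *CYP81F2*, which hydroxylates the indole ring, had 7, 3 and 5 counts in *bpcV* and 5, 4 and 5 counts in wild type and was not tested. The median log2 fold change of the 5 indole genes tested was 0.09, with 3 above 0 and 2 below.

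Outside the 39 loci, 50 other glucosinolate genes were read from a second list of regulators, enzymes, transporters and breakdown proteins. Of these, 39 were tested, and edgeR's quasi-likelihood test called 5 higher and 0 lower, where it called 1.66% and 2.23% of all genes tested. An unadjusted p under 0.05 was found for 19 of the 39 and for 28.3% of all genes tested. CPM did not overlap for 14 genes higher and 6 lower, against 18.2% and 17.6% of all genes. At an FDR of at most 0.05, 8 were higher and 3 lower, against 5.69% and 6.35% of all genes. The 3 lower were *IGMT2* (log2 fold change -1.82, edgeR FDR = 0.0142), *CYP81F3* (-1.23, 0.0189) and *IQD1* (-0.60, 0.0300). *NSP5* (-0.91, edgeR FDR = 0.102) was also lower in every *bpcV* library. DESeq2 and edgeR's likelihood ratio test each called 3 of the other glucosinolate genes lower. Over all genes these 2 tests called 1038 and 1225 lower, against 464 by the quasi-likelihood test. None of the 8 other regulators, such as *MYC2*, *MYC3* and *MYC4*, which work with the MYB factors, and none of the 3 transporters *GTR1*, *GTR2* and *GTR3* was called. The MYC genes had log2 fold changes of -0.17, -0.20 and 0.09.

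Of the 5 genes that rose, 3 belong to breakdown. *BGLU28*, a beta-glucosidase that cleaves glucosinolates when sulfur is scarce, had 11.2, 7.62 and 9.30 CPM in *bpcV*, against 1.89, 1.55 and 2.06 CPM in wild type. That was a fold change of 5.09 (log2 2.35 ± 0.20 SE, edgeR FDR = 0.000599), and *BGLU28* was called under all 16 alternatives. *MBP1*, a myrosinase-binding protein, had 492, 504 and 526 CPM in *bpcV* and 285, 308 and 291.8 CPM in wild type. *MBP2*, a related protein, had 1372, 1446 and 1538 CPM in *bpcV* and 849, 930 and 901 CPM in wild type. For all 3 genes every *bpcV* library exceeded every wild type library, and the fold changes of *MBP1* and *MBP2* were 1.72 (edgeR FDR = 0.0013) and 1.63 (edgeR FDR = 0.00382). Without wild type replicates 1, 2 and 3 the edgeR FDR was 0.0126, 0.0125 and 0.0140 for *MBP1* and 0.0266, 0.0251 and 0.0282 for *MBP2*, which was also not called without *bpcV* replicate 3 (0.0175).

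The other 2 were glutathione transferases linked to the step that adds sulfur. *GSTU20* had 124, 103 and 126 CPM in *bpcV*, against 56.9, 69.4 and 54.3 CPM in wild type (log2 fold change 0.97, edgeR FDR = 0.00291). *GSTF9* had 350, 336 and 337 CPM in *bpcV*, against 206, 252 and 222 CPM in wild type (log2 fold change 0.59, edgeR FDR = 0.00783). Neither overlapped between the genotypes. The call of *GSTU20* was lost without *bpcV* replicate 3 (edgeR FDR = 0.0152) or wild type replicates 1 and 3 (0.0204 and 0.0201). That of *GSTF9* was lost without *bpcV* replicates 2 and 3 (edgeR FDR = 0.0131 and 0.0269) or wild type replicates 1, 2 and 3 (0.0424, 0.0205 and 0.0512).

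**Figure D4:**
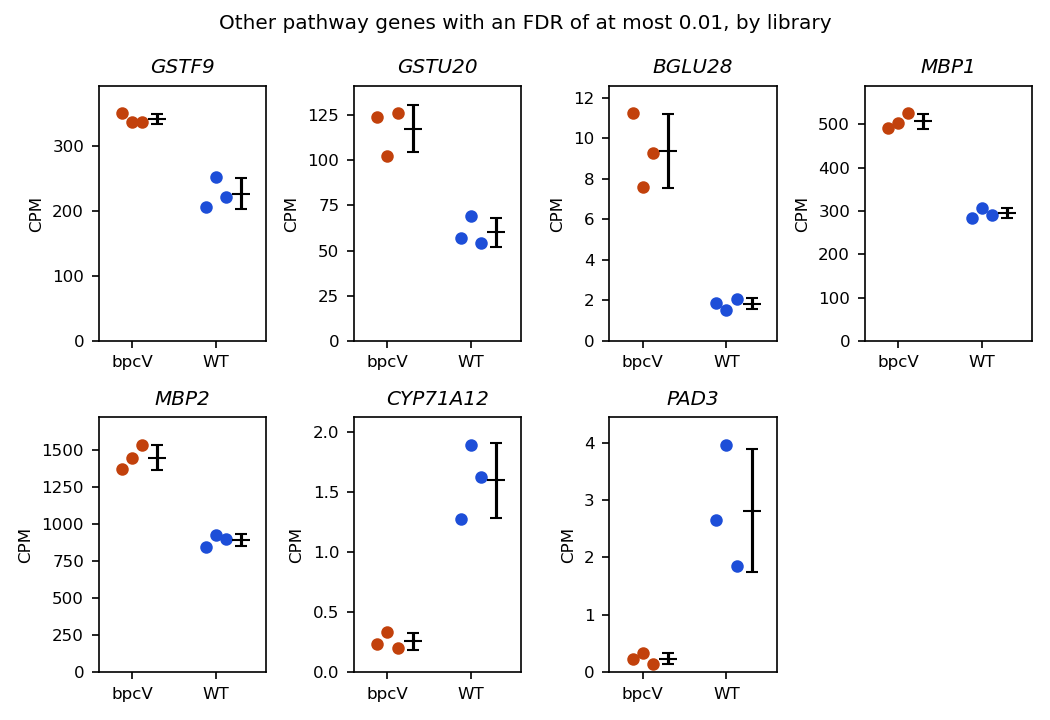
CPM of the 7 genes outside the 39 loci with an FDR of at most 0.01 in each library, *bpcV* on the left and wild type (WT) on the right of each panel, with the mean and SD of 3 in black. *GSTF9*, *GSTU20*, *BGLU28*, *MBP1* and *MBP2* are higher in every *bpcV* library, and the camalexin genes *CYP71A12* and *PAD3* are lower in every *bpcV* library.

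Indole-3-acetaldoxime, the product of *CYP79B2* and *CYP79B3*, is also the source of camalexin, an antimicrobial compound. Of 3 genes of that route, 2 fell, where 2.23% of all genes were called lower. *PAD3*, the P450 of its last step, had 0.238, 0.336 and 0.151 CPM in *bpcV*, against 2.65, 3.96 and 1.85 CPM in wild type, which was 11.5 times higher in wild type (log2 fold change -3.52 ± 0.44 SE, edgeR FDR = 0.00246). *CYP71A12* had 0.238, 0.336 and 0.201 CPM in *bpcV*, against 1.28, 1.89 and 1.63 CPM in wild type (-2.60 ± 0.35 SE, edgeR FDR = 0.00345). Both were low genes, with 3 to 6 counts in each *bpcV* library, and their calls were lost with 1 library out. For *PAD3* the edgeR FDR was 0.0153 without *bpcV* replicate 3 and 0.0126 and 0.0106 without wild type replicates 1 and 2. For *CYP71A12* it was 0.0195 without *bpcV* replicate 3 and 0.0114, 0.0201 and 0.0196 without wild type replicates 1, 2 and 3. *CYP71A13*, the close relative of *CYP71A12*, had a log2 fold change of 0.87 (edgeR FDR = 0.161). None of the 6 genes tested for tryptophan synthesis and none of the 8 for sulfur assimilation was called, with medians of 0.11 and 0.05 on the log2 scale. Over all genes tested, 3.89% were called. The sulfur assimilation genes ranged from -0.52 (*APR2*, edgeR FDR = 0.170) to 0.46 (*ATPS3*, edgeR FDR = 0.0141). Of these 8, 4 were higher and 2 lower in *bpcV* without overlap in CPM, against 18.2% and 17.6% of all genes.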

How the data were processed

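Gene levels were measured in 3 *bpcV* and 3 wild type samples, which the study describes as biological replicates. Per the labels and methods, paired-end reads of poly-A libraries were mapped with bowtie2 against TAIR10 transcripts, and the authors deposited the expected counts and TPM of RSEM, with versions not given in the sources used here. A final table of the authors (scaled values in 6 columns, 1 per library, with fold changes, p-values and FDR) was not used.

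Rounding of the counts was followed by filterByExpr (at least 10 counts, total of 15), TMM scaling and the quasi-likelihood test (edgeR 4.0.16, R 4.3.3); the model held genotype alone, with Benjamini-Hochberg adjustment over all genes tested. The fit was tested on simulated data. Alternatives were DESeq2 1.42.0, limma 3.58.1 (log2 TPM, pseudocounts 1 and 0.1, mean TPM of at least 1), edgeR's likelihood ratio test and newer quasi-likelihood fit, other scalings and filters, a replicate block, an FDR of 0.05 and each library left out. Those for the other lists and for all genes were added after seeing the data. TPM ratios of nearby genes were compared by exact two-sided permutation (20 arrangements). Promoters were read from TAIR10.1 with Python 3.11.15.

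Values per library were given for listed genes with an FDR of at most 0.05, for the MYB regulators and for the most abundant gene of each branch, and, in the other lists, for genes with an FDR of at most 0.01. Values by library or range of *TGG1*, *MAM3*, *AOP3*, *CYP81F2*, *CYP79F1*, *CYP79F2* and *CYP79B3* fall outside this rule and were chosen after they had been seen. The members and lists were chosen with earlier results of these data known.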

Additional observations from a re-analysis of the deposited data

How the results depend on the processing

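The counts of listed genes called, 3 higher and 1 lower in *bpcV*, moved with the test. They were 6 and 1 with DESeq2, 7 and 2 with edgeR's likelihood ratio test, 7 and 1 at an FDR of 0.05, and 3 and 0 with limma on log2 TPM at either pseudocount. With 1 library left out they ranged over 1 to 5 higher and 0 to 1 lower. The same numbers in the labels did not pair the samples (correlations of their deviations -0.03, -0.0038 and 0.19), and with the replicate block the counts were 1 and 0, *ESM1* alone being called. Of the 50 other glucosinolate genes, 5 were called higher and 0 lower. This became 8 and 3 at an FDR of 0.05, 5 and 3 with DESeq2, 7 and 3 with the likelihood ratio test and 2 and 0 with the replicate block, and 1 to 5 higher with 1 library left out. Over all genes, DESeq2 called 752 higher and 1038 lower, the likelihood ratio test 1008 and 1225, limma 227 and 348 (pseudocount 1) or 209 and 323 (pseudocount 0.1), and the block 138 and 270, against 345 and 464. Leaving out 1 library gave 38 to 587 higher and 124 to 662 lower. Scaling moved no sign among the listed genes tested. Signs changed with 1 library left out for 7 genes near 0, whose log2 fold changes then ranged over -0.075 to 0.57 (*MYB29*), -0.056 to 0.043 (*IIL1*, 0.00 without wild type replicate 1), -0.12 to 0.43 (*CYP83A1*, -0.10 without wild type replicate 1), -0.17 to 0.033 (*UGT74C1*), -0.11 to 0.037 (*MYB34*), -0.062 to 0.23 (*CYP79B3*) and -0.030 to 0.15 (*TGG2*). The cause was not tested. A p that missed the threshold does not show that a gene did not differ.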
